A study of Homo sapiens with 4 samples.

Results

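The 10 genes described here, GAS5, SNHG1, SNHG3, SNHG5, SNHG6, SNHG7, SNHG8, SNHG12, SNHG15 and SNHG16, are noncoding host genes of small nucleolar RNAs (snoRNAs). They were taken by name: every noncontrol probe whose transcript identifier maps to the spliced transcript of a listed host was used, which gave 29 of the 20099 probes kept and 10 of the 13039 genes measured. All 29 probes were well above background on all 4 arrays. RNA that came down with anti-TIA1 antibody (TIA1 RIP, replicates 1 and 2) was compared with total RNA (replicates 1 and 2) of KYSE180, an established cell line from a human esophageal squamous cell carcinoma (ESCC). No treatment or genetic change is given for either group, and each array was hybridized with Cy3-labelled RNA made from 0.2 μg RNA. The immunoprecipitates came from cytoplasmic lysates, and the methods speak of input lysates beside them, while the labels call the other group total RNA. IgG immunoprecipitates were not analysed here. No source states that the 2 samples of a group came from separate cultures, so that p-values measure the spread between these arrays, which may be technical.

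A snoRNA host gene is transcribed by RNA polymerase II and spliced, and the snoRNAs are trimmed out of its introns. C/D box snoRNAs guide methylation of ribosomal RNA and H/ACA box snoRNAs guide pseudouridylation, both in the nucleolus, while the spliced host RNA is polyadenylated and exported to the cytoplasm. Many of these host RNAs begin with a terminal oligopyrimidine (TOP) tract, as ribosomal protein mRNAs do, are engaged by ribosomes and are degraded by nonsense-mediated decay. TIA1 is an RNA-binding protein that prefers U-rich RNA, and TIA1 and its relative TIAL1 are known to associate with TOP mRNAs during amino acid starvation. GAS5 was named for its accumulation in growth-arrested cells.

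The start sites of the hosts are shown because a TOP tract is known for several members of the family, though the annotation gives it for only some of their transcripts. A start was counted as TOP-like when the first base was C and at least the first 5 bases were C or T, read on the transcript strand only. Of all 254413 transcripts in the GENCODE annotation on GRCh37, 2.59% had such a start. It was found in 50 of the 91 spliced GAS5 transcripts, 5 of 14 of SNHG8, 6 of 18 of SNHG12, 5 of 8 of SNHG6, 2 of 17 of SNHG16, 3 of 87 of SNHG5, 1 of 79 of SNHG1 and 1 of 3 of SNHG3, and in none of the 10 of SNHG7 or the 14 of SNHG15. Annotated starts of one gene overlap, so that these counts describe the annotation and not the RNA of the cells. The first 30 bases of the most frequent TOP-like start of 6 hosts follow, 5′ to 3′, with the unbroken run of C and T in capitals.
GAS5, chr1:173837098-173837127, minus strand: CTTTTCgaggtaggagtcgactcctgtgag
SNHG16, chr17:74553851-74553880, plus strand: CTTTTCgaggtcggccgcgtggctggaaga
SNHG5, chr6:86388422-86388451, minus strand: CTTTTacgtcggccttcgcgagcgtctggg
SNHG8, chr4:119199913-119199942, plus strand: CTTTCacattcgggaagcgtcgggattagg
SNHG3, chr1:28832555-28832584, plus strand: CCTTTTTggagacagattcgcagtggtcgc
SNHG12, chr1:28908356-28908385, minus strand: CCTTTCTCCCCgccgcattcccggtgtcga

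U-rich stretches are shown because TIA1 prefers them. For 9 of the hosts the window of 30 bases with the most U was searched among windows present in a share of at least 0.5 of its spliced transcripts, as T on the transcript strand. Of these 9, SNHG3 had the highest share, 60% (18 of 30 bases, in 2 of 3 transcripts), followed by SNHG1 with 56.7% (in 69 of 79), and SNHG5 had the lowest, 40% (in 66 of 87). The windows of these 3 hosts are given in lower case, since none holds a run of 5 T.
SNHG3, chr1:28836054-28836083, plus strand: tttgtatgatttctaatgtatttgtaattt
SNHG1, chr11:62619965-62619994, minus strand: tttgctgtgtatcacatttctgtattttat
SNHG5, chr6:86386865-86386894, minus strand: gtttacttgactgttgtgtgaaaagctgat
At least 1 run of TTTTT occurred in all 91 GAS5, all 18 SNHG12 and all 3 SNHG3 transcripts, and in 97.5% of those of SNHG1. The share was 80% for SNHG7, 67.8% for SNHG5, 64.7% for SNHG16, 42.9% for SNHG15, 37.5% for SNHG6 and 14.3% for SNHG8. Of the canonical transcripts of all annotated genes, counted as 1 per gene and so not a like measure, 63.8% held such a run. Over the spliced transcripts of each host, the median GC content ran from 42.2% (SNHG6) to 55.3% (SNHG7) and the median U content from 23.6% (SNHG7) to 30.9% (SNHG1). Canonical transcripts of all genes had a median of 47.1% GC and 24.7% U. The arrays do not resolve which of these transcripts a probe detected.

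The 4 arrays lay on 1 slide and were scanned together. Signals were taken as log2 relative to the 75th percentile of each array, with values of 1514 and 1271 for TIA1 RIP, but 714 and 69.9 for total RNA replicates 1 and 2. Total RNA replicate 2 also had the smallest share of spots well above background, 32.2% against 45.8% to 48.4% on the others, so that each host is given against each total RNA array as well as against their mean. All 7 squamous markers examined, such as KRT5 and TP63, were above background on all 4 arrays, counting any probe of a gene. So were 3 of 11 markers of fibroblasts, leukocytes and endothelium (PTPRC, CD14 and VWF). PTPRC had 4 probes and VWF 3. On total RNA replicate 1 their kept probes averaged -3.36 and -3.53, near the lowest detected scaled log2 signal of that array, -3.59. The kept probes of PTPRC were above background on only 1 total RNA array. Only ratios are compared between genes, since the levels of different probes have no common scale. In bulk RNA, a transcript present in fewer cells and one present at fewer copies per cell cannot be told apart.

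None of the 10 hosts differed between TIA1 RIP and total RNA beyond the spread between replicates. The log2 ratio (TIA1 RIP over total RNA) ran from -1.60 (SNHG3) to 0.54 (SNHG5) with a median of -0.07, beside a median of -0.04 over all genes. In limma with Benjamini-Hochberg adjustment over all genes, the adjusted p-values of the hosts lay between 0.776 (SNHG3) and 0.998 (SNHG8), and the lowest unadjusted p-value was 0.188. Over all genes, limma called 0% higher and 0% lower at an adjusted p-value of 0.05, while without adjustment 1.1% of genes passed 0.05 as higher and 4.02% as lower, and 0 hosts in either direction. The hosts of mainly C/D box snoRNAs (GAS5, SNHG1, SNHG5, SNHG6 and SNHG16) had ratios from -0.19 to 0.54, and those of mainly H/ACA box snoRNAs (SNHG3, SNHG7, SNHG8, SNHG12 and SNHG15) from -1.60 to -0.02. The ranges overlapped against total RNA replicate 1 alone (-1.57 to 0.11 and -3.08 to -0.66) and against replicate 2 alone (-0.04 to 2.09 and -0.88 to 1.09). With the trend over GC content removed, SNHG6 stood at -0.63 and SNHG7 at -0.07. Here and below, that trend used the GC content of 1 canonical transcript per gene. It was 40.42% for SNHG6 and 65.93% for SNHG7, beside medians of 42.2% and 55.3% over their spliced transcripts. The split was made after the values had been seen and was not tested.

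**Figure D1:**
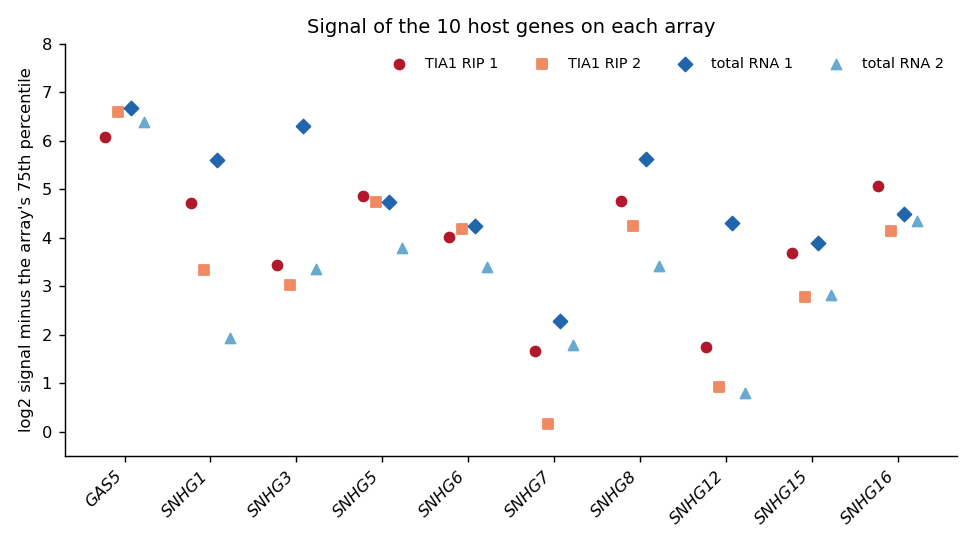
Signal of the 10 host genes on each array, as log2 relative to the 75th percentile of the array (vertical axis), with 1 point per array, circles and squares for TIA1 RIP and diamonds and triangles for total RNA. Total RNA replicate 2 lies below total RNA replicate 1 for every host (replicate 2 minus replicate 1 from -3.66 for SNHG1 to -0.14 for SNHG16), and heights are comparable only within a gene.

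Among the hosts of C/D box snoRNAs, GAS5 (chr1:173827697-173838020 of GRCh37, minus strand) holds 10 of them in its RefSeq span. The scaled log2 signal of GAS5 was 6.07 and 6.60 in TIA1 RIP replicates 1 and 2 and 6.68 and 6.38 in total RNA replicates 1 and 2. The groups overlapped, and the log2 ratio was -0.19 (standard error 0.78, adjusted p = 0.955 from limma). Its ratio was -0.34 against total RNA replicate 1 and -0.04 against replicate 2, and its total RNA values were closer together than those of any other host but SNHG16. Before scaling, the single GAS5 probe read 101754 and 123229 in TIA1 RIP and 73077 and 5815 in total RNA, so that near equality on the scaled values rests on the 75th percentile of each array.

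SNHG1 (chr11:62619450-62623425, minus strand) carries 8 C/D box snoRNAs and is also known as U22 host gene. For SNHG1, the scaled log2 signal was 4.72 and 3.33 in TIA1 RIP and 5.60 and 1.94 in total RNA. Both TIA1 RIP values stood between the total RNA values, whose gap (-3.66 for replicate 2 minus replicate 1) was wider than in 94.1% of all genes. The log2 ratio was 0.26 (standard error 1.29, adjusted p = 0.965 from limma), made up of -1.57 against total RNA replicate 1 and 2.09 against replicate 2.

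SNHG5 (chr6:86360209-86388650, minus strand) hosts the U50 snoRNAs and was measured by 18 probes, all listed under 1 transcript. The scaled log2 signal of SNHG5, averaged over the probes, was 4.86 and 4.73 in TIA1 RIP and 4.73 and 3.78 in total RNA. It was the 1 host for which both TIA1 RIP values exceeded both total RNA values, against 19.4% of all genes, and TIA1 RIP replicate 2 and total RNA replicate 1 differed by only 0.01. The log2 ratio was 0.54 (standard error 0.81, adjusted p = 0.872 from limma), with 0.07 against total RNA replicate 1 and 1.01 against replicate 2.

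The 18 SNHG5 probes show how far the ratio depends on the probe. Their signals on total RNA replicate 1 ran from 4815 to 43610, a 9.06-fold range. Their log2 ratios nevertheless ran only from 0.29 to 0.71 (median 0.56, SD 0.12 over probes). Against total RNA replicate 1 they ran from -0.09 to 0.22, and against replicate 2 from 0.68 to 1.29. The choice of total RNA array thus moved the ratio of SNHG5 by more than the choice among its probes. Probes of 1 transcript share its RNA and are not replicates.

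**Figure D2:**
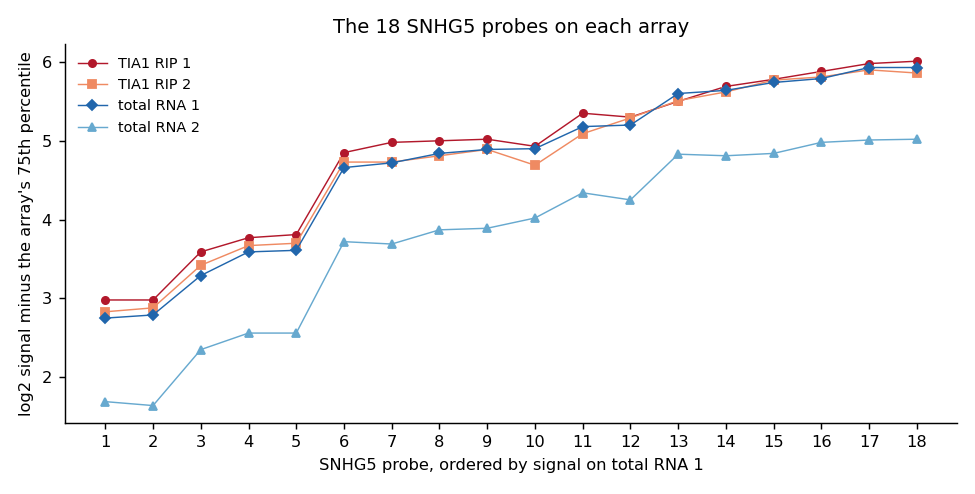
The 18 SNHG5 probes, ordered by their signal on total RNA replicate 1 (horizontal axis), with log2 signal relative to the 75th percentile of the array (vertical axis) and 1 line per array. The lines of both TIA1 RIP arrays and total RNA replicate 1 run together, with ratios from -0.09 to 0.22 against that array, and total RNA replicate 2 runs below them at every probe.

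SNHG6 (chromosome 8, 67832796 to 67838633, minus strand) carries SNORD87 and was measured by 2 probes. Scaled log2 signals of SNHG6 were 4.01 and 4.18 in TIA1 RIP and 4.24 and 3.40 in total RNA. Total RNA replicate 1 was the highest and replicate 2 the lowest of the 4, and the log2 ratio was 0.27 (standard error 0.80, adjusted p = 0.94 from limma). It was -0.15 against total RNA replicate 1 and 0.69 against replicate 2. The probes of SNHG6 gave ratios of 0.44 and 0.09.

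SNHG16 (chr17:74553809-74667067, plus strand) carries the SNORD1 family. In scaled log2 signal, SNHG16 stood at 5.07 and 4.14 in TIA1 RIP and 4.49 and 4.35 in total RNA. Its total RNA values (-0.14 for replicate 2 minus replicate 1) had the smallest gap among the hosts, and both lay between the TIA1 RIP values. The log2 ratio was 0.18 (standard error 0.81, adjusted p = 0.961 from limma), at 0.11 and 0.25 against the single total RNA arrays.

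Among the hosts of H/ACA box snoRNAs, SNHG3 (chr1:28832492-28837404, plus strand) carries SNORA73A and SNORA73B, the U17 snoRNAs. The scaled log2 signal of SNHG3 was 3.43 and 3.02 in TIA1 RIP and 6.31 and 3.36 in total RNA. The TIA1 RIP values and total RNA replicate 2 stood close together, and total RNA replicate 1 was far above them. The log2 ratio of -1.60 (standard error 1.10, adjusted p = 0.776 from limma) was the lowest of the hosts, and 9.92% of all genes had a lower one. Against total RNA replicate 1 alone the ratio was -3.08, with 0.798% of genes lower, and against replicate 2 alone it was -0.13, with 52.8% lower.

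SNHG12 (chr1:28905050-28909644, minus strand) carries 3 H/ACA and 1 C/D box snoRNA. Its pattern resembled that of SNHG3, with scaled log2 signals of 1.75 and 0.93 in TIA1 RIP and 4.30 and 0.80 in total RNA. Total RNA replicate 1 again stood alone above the other 3 arrays. The log2 ratio of SNHG12 was -1.20 (standard error 1.22, adjusted p = 0.814 from limma), or -2.95 against total RNA replicate 1 and 0.55 against replicate 2.

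SNHG7 (chr9:139615818-139622636, minus strand) carries SNORA17A and SNORA17B, a pair of paralogs. The scaled log2 signal of SNHG7 was 1.67 and 0.16 in TIA1 RIP and 2.29 and 1.79 in total RNA. It was the 1 host for which both TIA1 RIP values lay below both total RNA values, against 21.7% of all genes. The log2 ratio was -1.13 (standard error 0.88, adjusted p = 0.779 from limma), with -1.38 and -0.88 against total RNA replicates 1 and 2. Its 2 probes are listed under different transcripts and disagreed, with log2 ratios of -2.15 and -0.11. The first read 0.65 and -0.58 in TIA1 RIP and 1.99 and 2.37 in total RNA, and the second 2.69 and 0.89 against 2.59 and 1.21. Only the first probe separated the groups, so that the mean of SNHG7 mixes a pair of different patterns.

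SNHG8 (chr4:119199858-119206471, plus strand) carries SNORA24. For SNHG8, the arrays gave scaled log2 signals of 4.76 and 4.25 in TIA1 RIP and 5.63 and 3.41 in total RNA. As for SNHG1, both TIA1 RIP values fell between the total RNA values, and the log2 ratio was -0.02 (standard error 0.98, adjusted p = 0.998 from limma). This near-zero value averaged -1.13 against total RNA replicate 1 and 1.09 against replicate 2.

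SNHG15 (chr7:45022618-45026560, minus strand) carries SNORA9. Scaled log2 signals of SNHG15 were 3.69 and 2.77 in TIA1 RIP and 3.89 and 2.81 in total RNA. Each TIA1 RIP array lay close to the total RNA array of the same number, and the log2 ratio was -0.12 (standard error 0.85, adjusted p = 0.976 from limma), made up of -0.66 against total RNA replicate 1 and 0.41 against replicate 2.

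All 10 hosts had a lower scaled signal on total RNA replicate 2 than on replicate 1, as did 43% of all genes. The difference ran from -3.66 (SNHG1) to -0.14 (SNHG16) with a median of -1.01, beside a median of 0.38 over all genes. It was -3.66 for SNHG1, -3.50 for SNHG12, -2.95 for SNHG3 and -2.22 for SNHG8, while the other 6 hosts stayed between -1.07 and -0.14. Between the TIA1 RIP arrays, 8 hosts were lower on replicate 2, beside 47.7% of all genes, with differences down to -1.51 (SNHG7). The gap between the total RNA arrays therefore decided the sign of the ratio for several hosts. The mean of TIA1 RIP was below total RNA replicate 1 for 8 of 10 hosts (46.9% of all genes) and below total RNA replicate 2 for 3 of 10 (55.1% of all genes). These counts share the TIA1 RIP arrays and are given side by side only.

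**Figure D3:**
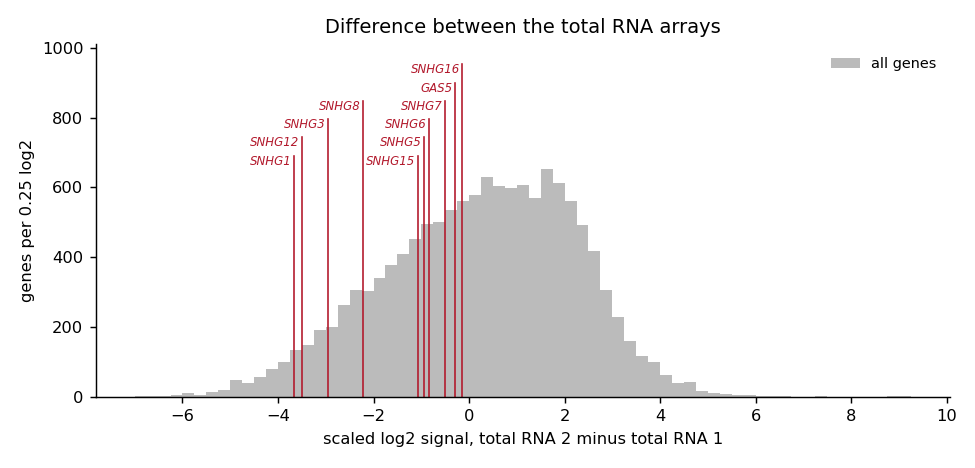
Scaled log2 signal on total RNA replicate 2 minus that on replicate 1 (horizontal axis), with the number of genes per bin for all genes as grey bars and the 10 hosts as red lines. The hosts lie between -3.66 and -0.14, all left of 0 and of the median of all genes at 0.38; the height of a red line carries no value.

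GAPDH, which encodes a glycolytic enzyme, was the study's non-target reference, and the ratio of each host was therefore also set against it. GAPDH had scaled log2 signals of 6.49 and 6.69 in TIA1 RIP and 7.67 and 9.63 in total RNA, so that its own log2 ratio was -2.06 (standard error 0.93, adjusted p = 0.776 from limma). On the means, 7 of the 10 hosts lay more than 2.5-fold above GAPDH, and so did 72.4% of all other genes; 0 hosts and 1.62% of genes lay more than 2.5-fold below it. The 7 were SNHG5 (6.07-fold), SNHG6 (5.02-fold), SNHG1 (4.99-fold), SNHG16 (4.72-fold), SNHG8 (4.12-fold), SNHG15 (3.83-fold) and GAS5 (3.65-fold). SNHG7 stood at 1.91-fold, SNHG12 at 1.81-fold and SNHG3 at 1.37-fold. The share of hosts past the fold was close to that of all genes, and the median log2 enrichment of the hosts was 1.99 beside 2.02 over all genes. The place of SNHG7 depended on averaging its probes. With only the brightest probe of each gene, its log2 enrichment was 1.95, and 8 hosts passed 2.5-fold beside 9334 genes.

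None of these enrichments passed the replicate spread. The adjusted p-values from limma on values relative to GAPDH lay between 0.222 (SNHG5) and 0.834 (SNHG3), and at an unadjusted p-value of 0.05 limma called 0 hosts against 19.5% of genes. At the adjusted threshold it called 0 hosts and 0% of genes. The fold depended on the total RNA array. Against total RNA replicate 1 alone, 0 hosts passed 2.5-fold on the mean of TIA1 RIP, beside 42.3% of genes, and the hosts ranged from 0.25-fold (SNHG3) to 2.28-fold (SNHG16). Against total RNA replicate 2 alone, all 10 passed, beside 77.5% of genes, from 4.47-fold (SNHG7) to 35-fold (SNHG1).

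In single pairs of arrays with total RNA replicate 1, TIA1 RIP replicate 1 had 1 host past the fold (SNHG16 at 3.37-fold, with SNHG5 just under it at 2.48-fold), beside 46% of genes. TIA1 RIP replicate 2 had 0, beside 40% of genes. With total RNA replicate 2, all 10 hosts passed in TIA1 RIP replicate 1, beside 76.7% of genes, and 9 passed in replicate 2, beside 77.7%, where SNHG7 reached 2.46-fold. No host passed in all 4 pairs, whereas 26.2% of genes did.

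**Figure D4:**
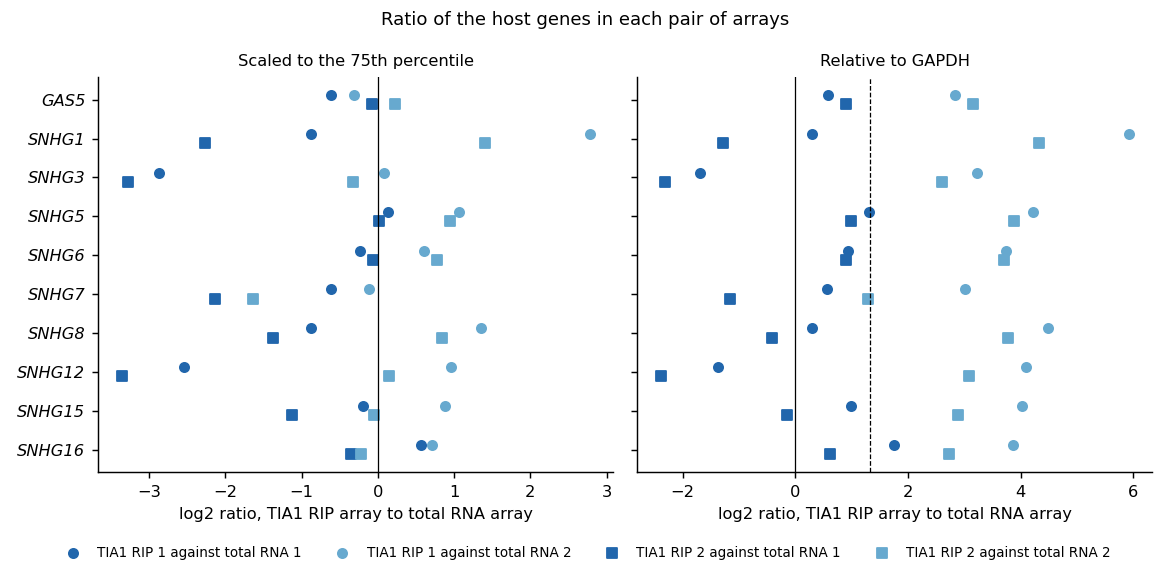
Log2 ratio of a TIA1 RIP array to a total RNA array (horizontal axis) for the 10 hosts in each of the 4 pairs, scaled to the 75th percentile (left) and relative to GAPDH (right, dashed line at 2.5-fold). Dark points use total RNA replicate 1 and light points replicate 2, circles TIA1 RIP replicate 1 and squares replicate 2; 1 dark point, SNHG16 at 3.37-fold, and all light points but SNHG7 at 2.46-fold lie past the dashed line.

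The snoRNA genes inside these hosts were compared with the hosts where the arrays measured them. RefSeq places 36 snoRNA genes within the spans of the 10 hosts on a later assembly, by position alone, since their strand was checked for 0 of the 36. The arrays held probes for 31, and 18 of them, inside 9 hosts, were above background on both arrays of a group. Of the 18, 11 passed on the total RNA arrays alone, where they were bright, so that a lower value in TIA1 RIP was favoured by the filter and counts over the 18 are no measure of all snoRNAs. The 6 that were above background on all 4 arrays (SNORD80, SNORA73B, SNORA17A, SNORA24, SNORA16A and SNORA9) had log2 ratios from -5.42 to -1.21, and each was below its host, by a median difference of -2.29 (from -4.79 to -1.02). Another 7 were well above background on neither TIA1 RIP array and have only bounds, from at least 3.21-fold to at least 14.3-fold lower. In limma, 0 of the 18 passed the adjusted threshold (lowest adjusted p = 0.591). A count without adjustment is not given, since the filter favoured lower values in TIA1 RIP. For the 6 above background on all 4 arrays, unadjusted p-values from limma ran from 0.00115 (SNORA24) to 0.169 (SNORD80).

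Among the 6 snoRNAs above background on all 4 arrays, SNORA24, an H/ACA box guide inside SNHG8, lay furthest below its host. SNORA24 had scaled log2 signals of -1.85 and -3.04 in TIA1 RIP and 1.62 and 3.10 in total RNA, a log2 ratio of -4.81 (standard error 0.92, adjusted p = 0.591 from limma) beside -0.02 for SNHG8. Inside SNHG12, SNORA16A stood at -1.83 and -2.76 against 1.81 and 4.44, a log2 ratio of -5.42 beside -1.20 for SNHG12. Inside GAS5, SNORD80 came closest to its host among the 6, at -0.48 and -0.06 against 1.25 and 0.64, a log2 ratio of -1.21 beside -0.19 for GAS5. Inside SNHG1, SNORD22 was well above background only in total RNA, at 0.27 and -0.18, and was at least 10.2-fold lower in TIA1 RIP.

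The difference between host and snoRNA also depended on the total RNA array. Against total RNA replicate 1 alone, 5 of the 6 snoRNAs measured on all 4 arrays were below their host, with a median difference of -1.22, and SNORA73B stood 0.80 above SNHG3. With the 7 undetected in TIA1 RIP at their bounds, 12 of the 18 were below the host on that array. The other 6 were SNORD25, SNORD26 and SNORD27 in SNHG1, SNORA73A and SNORA73B in SNHG3, and SNORA44 in SNHG12, and all but SNORA73B are bounds that leave their place relative to the host unknown. The medians moved apart between the total RNA arrays, since replicate 2 minus replicate 1 had a median of -1.01 over the hosts and 1.62 over the snoRNAs. snoRNAs lack a poly(A) tail and reside in the nucleus, the immunoprecipitates came from cytoplasm, and the part of either in these ratios was not tested. Probes for SNORA73A and SNORA73B, and for SNORA17A and SNORA17B, target related copies and may share signal. Their sequences were not compared here.

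**Figure D5:**
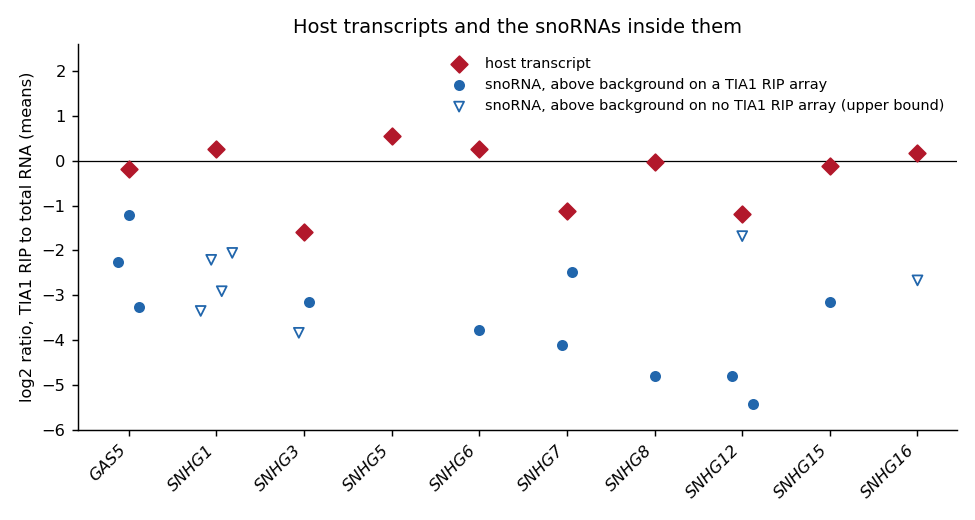
Log2 ratio, TIA1 RIP over total RNA, on the means of 2 arrays each (vertical axis), for the 10 hosts (diamonds) and the 18 snoRNAs inside them. Filled circles are the 11 snoRNAs above background on at least 1 TIA1 RIP array and open triangles are upper bounds for the other 7. Of the filled circles, SNORD47, SNORD74, SNORD87, SNORA17B and SNORA61 include an array on which they were not above background. The 6 measured on all 4 arrays lie below their hosts (snoRNA minus host from -4.79 to -1.02), and no snoRNA inside SNHG5 passed the filter.

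Other snoRNA hosts and genes of snoRNA biology were listed for comparison. Of 14 further noncoding hosts, 9 were detected, with a median log2 ratio of -0.33, and limma called 0 at an unadjusted p-value of 0.05. ZFAS1, host of the SNORD12 family and also a TOP RNA, read 5.25 and 5.25 in TIA1 RIP and 5.33 and 4.74 in total RNA, a log2 ratio of 0.21 beside 0.18 for SNHG16. SNHG9 was the lowest of the 9, at 1.89 and 1.35 against 3.92 and 2.78. Its log2 ratio was -1.73 (adjusted p = 0.776 from limma). Both TIA1 RIP values lay below both total RNA values for 4 of the 9, SNHG9 among them, and for 21.7% of all genes. They lay above both for 1 of the 9 and for 19.4% of all genes. DANCR, which carries SNORA26, had a ratio of 0.10. Relative to GAPDH, 6 of the 9 (66.7%) passed 2.5-fold, beside 72.4% of all genes.

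Protein-coding genes with a snoRNA gene in their span numbered 410 detected of 551. Their median log2 ratio was 0.04, and limma without adjustment called 7 of the 410 higher (1.1% of all genes) and 20 lower (4.02% of all genes), and 0 after adjustment. By fitted ratio the top places went to CSMD3 and SMC3, neither of them measured on every array. CSMD3 was well above background on no total RNA array and was at least 3.06-fold higher in TIA1 RIP. SMC3, a cohesin subunit, was well above background on 1 total RNA array and had a log2 ratio of 0.82 against total RNA replicate 1. At the other end were POR, the electron donor of cytochrome P450 enzymes, and PDZD2. POR had a log2 ratio of -4.11, with -2.15 against total RNA replicate 1 and -6.07 against replicate 2. PDZD2 was at least 6.34-fold lower, since it was above background on no TIA1 RIP array. A snoRNA gene within the span of a long gene need not be expressed from it.

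Of 16 listed genes for snoRNP proteins and their assembly, 15 were detected. Their median log2 ratio was 0.53, but -0.12 against total RNA replicate 1 and 1.11 against replicate 2. DKC1, the pseudouridine synthase of H/ACA particles, had a ratio of 0.97, with -0.27 and 2.22 against total RNA replicates 1 and 2. FBL, the methyltransferase of C/D particles, had -0.76, with -0.17 and -1.36. Other members of the list went either way on the means, such as NHP2 at -1.81 and GAR1 at 1.20. NOP58, a core C/D protein, read 4.58 and 3.72 in TIA1 RIP and 5.04 and -1.03 in total RNA, and was well above background on 1 of the total RNA arrays; its log2 ratio was -0.89 against total RNA replicate 1. The 10 factors of nonsense-mediated decay had a median of -0.34 (-0.40 and 0.20 against total RNA replicates 1 and 2), with -1.86 for SMG5 and -1.58 for UPF1. UPF3B was well above background on 1 total RNA array and had a log2 ratio of 0.49 against replicate 1. Limma called 0 genes of either list at an unadjusted p-value of 0.05. The nuclear RNAs NEAT1 and MALAT1 had log2 ratios of 1.47 and -0.04, and both were -1.10 against total RNA replicate 1 alone.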

How the data were processed

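The members and gene lists were chosen with earlier results of these data known. The authors deposited Agilent Feature Extraction 10.7.1.1 output, which gives the fluorescence intensity of each spot on a linear scale after background subtraction and detrending, with the raw median intensities of spot and background. The deposited files also hold other values, the flags for outlying and detected spots. Nothing was normalized between arrays. The authors went on in GeneSpring, relating precipitates to total RNA and to GAPDH; how arrays were scaled is not given in the sources used here.

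Flagged spots were left out, log2 processed signals were reduced by the 75th percentile of each array over 58717 spots, and spots of a probe were averaged. Probes detected (a share of 0.5 of spots well above background) on both arrays of a group were kept. Symbols came from RefSeq accessions and GENCODE transcripts (68.2% of 50599 probes), and probes of a gene were averaged. limma 3.58.1 in R 4.3.3 tested TIA1 RIP against total RNA over all 13039 genes, scaled and relative to GAPDH, with a threshold of 0.05. The code was first run on simulated arrays with known changes. Their noise was independent and smaller than the median replicate SD of the hosts (0.75 log2), so that run does not show what limma can detect here. GRCh37 is the build in the file headers. The snoRNAs within host spans were taken from RefSeq names and neighbours (a later assembly, strand not checked), because the GENCODE lift lists few of them. A bound takes the higher of the lowest detected signal and the probe's own. Named genes were all members, the listed genes, the detected snoRNAs, and the 2 highest and 2 lowest protein-coding hosts; the 3 nearest profiles were left out, as their distance compares levels of different probes. Precision is limited by having 2 arrays in each group. Figures used matplotlib 3.10.9 in Python 3.11.15. The U-rich window of 1 host and the value of 1 listed gene are not reported here.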

Additional observations from a re-analysis of the deposited data

How the results depend on the processing

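The 10 hosts were recomputed under other background correction, scaling, detection filters, floor, probe choice, reference gene, fold, block and GC content, and with each array left out. No host passed an adjusted p-value of 0.05 on the scaled values under any of these. The scaled median of the hosts, -0.07, ran from -0.89 (without total RNA replicate 2) to 0.48 (without total RNA replicate 1) with an array left out. The median enrichment over GAPDH, 1.99, ran from 0.18 to 3.52 in the same way, and was 0.99 with quantile normalization, 1.19 with the GC trend removed (with or without the block) and -0.04 with GAPDH replaced by the all-gene median. The number of hosts past 2.5-fold, 7, ran from 0 to 10 with an array left out, and was 2 with quantile normalization, 4 with the GC trend removed (with or without the block) and 0 relative to the median of all genes. Over all genes the 9445 past the fold ran from 5510 to 10107 with an array left out, and became 4394 with quantile normalization, 5932 with probes detected on all 4 arrays and 1636 relative to the median. Keeping only probes detected on all 4 arrays left 9237 of the 13039 genes, so that its count of 5932 is over fewer genes. Quantile normalization moved the median ratio of all genes from -0.04 to 0.26.

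Replicates 1 and 2 occur in both groups, and arrays of equal number deviated together (r = 0.453), but no source says that a number marks a shared culture. With the replicate block, 356 genes and no host passed on the scaled values (57 higher and 299 lower), against 0 without it. With the replicate block and the GC trend removed, 2 of the 10 hosts passed relative to GAPDH, beside 6297 of the 12641 genes with a GC content. The share of hosts was thus below that of genes. Those hosts were SNHG5 (log2 enrichment 1.86, adjusted p = 0.0212 from limma) and SNHG16 (1.71, adjusted p = 0.033). With an array left out, 0 to 10 hosts passed relative to GAPDH. On the scaled values, a different measure, 0 to 3900 genes and no host passed, so that these ranges are not to be set against each other. Both highest counts came without total RNA replicate 1, where the spread rests on the TIA1 RIP arrays alone. In that fit most of all genes also passed relative to GAPDH, so that the hosts did not stand out.

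Scaled ratios changed sign for 7 hosts. GAS5 became 0.30 with normexp and 0.88 with quantile normalization, SNHG8 0.35 and 0.42 (0.08 with median scaling), and SNHG15 0.19 and 0.11. SNHG1 became -0.23 and SNHG6 -0.63 with the GC trend removed, with or without the block. With an array left out, the ranges were -0.46 to 0.07 for GAS5, -1.57 to 2.09 for SNHG1, -2.95 to 0.55 for SNHG12, -0.66 to 0.41 for SNHG15, -0.28 to 0.64 for SNHG16, -0.15 to 0.69 for SNHG6 and -1.13 to 1.09 for SNHG8. Relative to the median of all genes, GAS5 was -0.16, SNHG12 -1.17, SNHG15 -0.09, SNHG3 -1.57 and SNHG7 -1.10. With quantile normalization, enrichment over GAPDH was -0.64 for SNHG12, -0.82 for SNHG3 and -0.53 for SNHG7, and SNHG3 was -0.31 with the GC trend removed, with or without the block. With an array left out, enrichment ran from -0.50 to 5.13 for SNHG1, -1.88 to 3.59 for SNHG12, -2.0 to 2.92 for SNHG3, -0.30 to 2.16 for SNHG7 and -0.05 to 4.14 for SNHG8. The causes were not tested. No alternative changed the sign of SNHG3, SNHG7 or SNHG5 on the scaled values, but some brought them near 0: SNHG7 to -0.07 with the GC trend removed, SNHG3 to -0.13 without total RNA replicate 1 and SNHG5 to 0.07 without total RNA replicate 2.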
